A study of Mus musculus with 37 samples.

Results

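Short CTCF loops, those with less than 25 kb between the midpoints of their anchors, made up 4387 of the 27786 loops in a CTCF ChIA-PET library, or 15.8%. The members were chosen by span alone. PET counts, gene annotation and expression were not used to choose them, although span itself limits where a loop can lie relative to genes. ChIA-PET enriches chromatin bound by a protein, joins DNA ends that lie close together in the nucleus and counts paired-end tags (PETs) that link a pair of sites. The library came from Camk2a+ nuclei sorted from the hippocampus of tamoxifen-treated male mice that carried the Camk2a-creERT2 and CAG-Sun1/sfGFP transgenes on a C57BL/6J background, with Kdm1a left intact. The RNA-seq libraries came from whole hippocampal tissue of 3 control mice and 3 Kdm1a-ifKO mice, all male and tamoxifen-treated on the same background. Kdm1a-ifKO mice carried loxP sites in both Kdm1a alleles and the Camk2a-creERT2 transgene, which is active in forebrain excitatory neurons, so other cells kept the gene. Controls were littermates with the same loxP sites but without the transgene, so that loss of Kdm1a and presence of the transgene cannot be told apart. The ChIA-PET library had no replicate. Intervals on shares of loops are exact binomial 95% intervals and those on PET counts are exact Poisson ones. Both cover counting error only, and loops that share an anchor are not independent.

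CTCF is a zinc finger protein that binds a long, directional DNA motif. The ring-shaped cohesin complex extrudes chromatin into a growing loop and is held at CTCF sites, most effectively where the motif points into the loop. Long CTCF loops therefore tend to have convergent motifs, a plus-strand motif at the left anchor and a minus-strand motif at the right one. Short contacts between CTCF sites can also lie within a gene or join a promoter to nearby sequence. In the mouse genome, many CTCF motifs lie in copies of the B2 family of short interspersed repeats.

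The motif searched for was CCA, any 2 bases, AG, any 2 bases and GGC, on both strands of GRCm38. Matches at the anchors of 4 strong short loops are shown because they carry the orientations and the repeated letters described further on. Each line gives a match with its flanking bases, read 5′ to 3′ on the strand that holds the motif, with the motif in capitals. Matches in exons are not shown. The sequences were taken from RefSeq GRCm38.p6. The first loop lies inside Nav2, a gene for a cytoskeleton-associated protein of neurons, and held 107 PETs. Both matches of its left anchor lie on the plus strand and both of its right anchor on the minus strand, all in introns of Nav2, so that the loop is convergent.
Nav2 left, chr7:49248794-49248825, plus strand: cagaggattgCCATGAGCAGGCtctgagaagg
Nav2 left, chr7:49250190-49250221, plus strand: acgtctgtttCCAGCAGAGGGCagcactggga
Nav2 right, chr7:49272670-49272701, minus strand: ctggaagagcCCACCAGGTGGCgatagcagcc
Nav2 right, chr7:49274038-49274069, minus strand: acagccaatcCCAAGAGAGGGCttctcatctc

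The second loop, of 95 PETs, shared the right-hand matches of the first but had a left anchor inside it, where the only match lies on the minus strand in an intron of Nav2. Its motifs are therefore in tandem.
Nav2 inner left, chr7:49258787-49258818, minus strand: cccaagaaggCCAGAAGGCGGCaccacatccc

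The third loop lies inside Dgkz, which encodes a diacylglycerol kinase, and held 112 PETs. Its 3 matches lie in introns of Dgkz and are convergent.
Dgkz left, chr2:91944327-91944358, plus strand: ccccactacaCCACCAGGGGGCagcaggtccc
Dgkz right, chr2:91953875-91953906, minus strand: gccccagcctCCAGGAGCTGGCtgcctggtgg
Dgkz right, chr2:91963736-91963767, minus strand: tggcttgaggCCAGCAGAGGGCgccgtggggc

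The last loop shown holds several copies of the same 12 letters. The loop of 568 PETs between the body of Sfi1, a centrosome gene, and the stretch that holds the start of Sfi1 and part of Drg1 had 6 matches, of which the 5 outside exons are given. It was given no orientation, because its left anchor held matches on both strands.
Sfi1 left, chr11:3175673-3175704, plus strand, intron: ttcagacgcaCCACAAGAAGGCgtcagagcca
Sfi1 left, chr11:3172190-3172221, minus strand, intron: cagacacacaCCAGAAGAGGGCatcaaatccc
Sfi1 left, chr11:3179866-3179897, minus strand, intron: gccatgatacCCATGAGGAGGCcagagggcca
Sfi1 right, chr11:3191544-3191575, minus strand, intron of Sfi1 and Drg1: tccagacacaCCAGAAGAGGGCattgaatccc
Sfi1 right, chr11:3197415-3197446, minus strand, intron of Drg1: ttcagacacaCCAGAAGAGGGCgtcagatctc

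Spans of the short loops ran from 7.67 kb up to the limit, with a median of 13.65 kb. Only 14 loops were shorter than 8 kb, while 928 measured 8 to 10 kb, 758 measured 10 to 12 kb, 822 measured 12 to 15 kb, 1047 measured 15 to 20 kb and 818 measured 20 to 25 kb. For comparison, 8365 loops spanned 25 to 100 kb, 12191 spanned 100 to 500 kb and 2843 spanned 500 kb or more. The loop just inside the limit lies in Diaph1, which encodes a formin, with 15 PETs, and the loop just outside it lies in Rbfox1, which encodes a splicing factor, with 3 PETs.

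**Figure D1:**
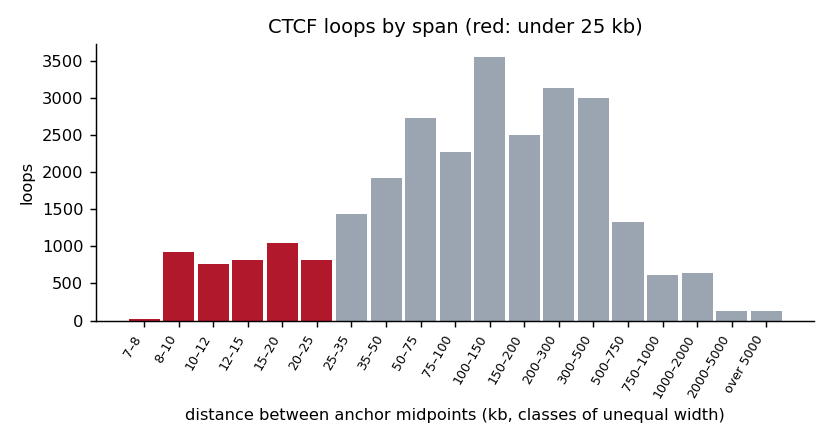
Number of CTCF loops (vertical axis) in classes of the distance between anchor midpoints in kb (horizontal axis, classes of unequal width), with short loops in red. Only 14 loops fell under 8 kb, and each class from 8 to 25 kb held between 758 and 1047 loops.

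Most short loops rested on few PETs. Their median was 5 PETs, with quartiles of 3 and 8, and 1328 of them (30.3%) had the lowest count kept, 3. Loops of 25 to 100 kb and of 100 to 500 kb also had a median of 5, and those of 500 kb or more had 4. The upper part of the distribution differed more. At least 10 PETs were counted in 20.8% of short loops, against 26.7%, 25.8% and 16.1% of the 3 longer classes in order of span. At least 50 PETs were counted in 88 short loops, or 2.01%, against 4.59%, 3.91% and 1.02%. Short loops held 13.5% of all PETs. Within them, loops of 10 to 12 kb had the highest median, 6 PETs, and those of 20 to 25 kb had a median of 4.

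Anchors grew wider with the count. The median anchor of a short loop measured 1000 bp at 3 PETs, 1672 bp at 6 to 9 PETs and 7830 bp at 50 PETs or more. The 5 loops of the library whose anchors overlapped each other were all short and ranked among the 10 strongest short loops. Without them the mean count fell from 9.43 to 8.92, and the median stayed at 5.

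**Figure D2:**
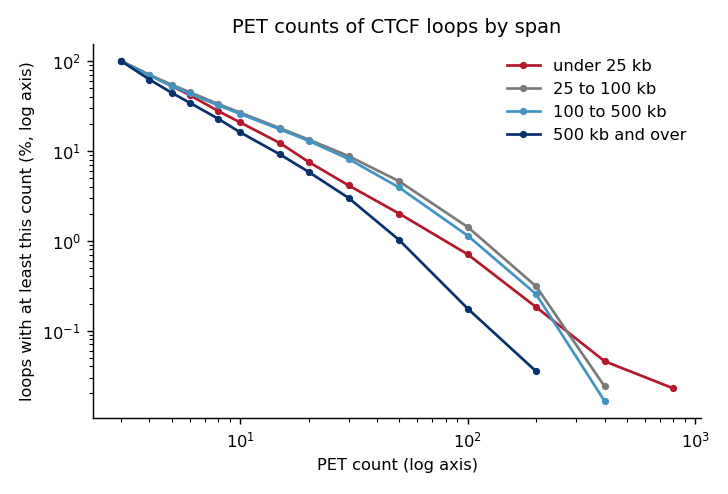
Share of loops in percent (vertical log axis) with at least a given PET count (horizontal log axis) for the 4 classes of span. Short loops, in red, reached at least 10 PETs in 20.8% and at least 50 PETs in 2.01% of cases, and only the strongest of them, at 1242 PETs, exceeded every longer loop.

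The strongest short loop held 1242 PETs (1173.9 to 1313) at Camk2a, which encodes the alpha subunit of a calcium-dependent kinase of excitatory synapses, and Arsi, which encodes a sulfatase. Its anchors, at 60896364 to 60944021 and 60910822 to 60956013 on chromosome 18 of GRCm38, were 47.7 and 45.2 kb wide and overlapped by 33.2 kb. Within 50 kb of Camk2a there were 44 loops, of which 20 were short, and the strongest of the longer ones held 627 PETs. The sorted nuclei carried a transgene named for Camk2a, and PETs from the transgene and from the locus itself cannot be told apart in these counts.

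Further strong loops, of 568 and 308 PETs, lay at Sfi1. Within 50 kb of Sfi1 there were 61 loops, 31 of them short, and no longer loop exceeded 16 PETs. The copy number of this region was not tested, and it bears on every count of loops and PETs at Sfi1. A loop of 384 PETs joined the promoters of Rnaseh2a, Prdx2 and Junb, the last an immediate early gene for a transcription factor, to that of Hook2. A loop of 301 PETs lay at Ptma, which encodes prothymosin alpha. A loop of 271 PETs spanned Mrpl43, Twnk, Lzts2 and Pdzd7, and one of 256 PETs covered Wnt10a and the end of Wnt6, both genes for secreted Wnt ligands. A loop of 194 PETs at Rhbdf1, Nprl3 and Mpg had a single match at each anchor, in convergent orientation. Another, of 190 PETs, covered the starts of Pip5k1c, a phosphoinositide kinase gene, and Tjp3, a tight junction gene.

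Of the short loops, 1831 had the start of an annotated gene within 1 kb of an anchor, or 41.7% (40.3 to 43.2). This share was 39.95% (38.9 to 41.0) for loops of 25 to 100 kb, 29.1% (28.3 to 30.0) for those of 100 to 500 kb and 21.3% (19.8 to 22.9) for those of 500 kb or more. Promoters stood at both anchors of 278 short loops, or 6.34%, and 176 loops (4.01%) joined the promoters of different protein-coding genes. The strongest of these besides the loops at Camk2a and Junb joined Marveld1 to Zfyve27 with 146 PETs, Rin1 to Cd248 with 130 PETs and Gm45837 to Pde2a with 107 PETs. Gm45837, with 0.0174 CPM in controls, is a gene model that overlaps almost all of Pde2a on the same strand. The last loop therefore links the starts of overlapping gene models. Short loops with promoters at both anchors had a median of 6 PETs, those with 1 promoter anchor 5 and those with none 4.

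A less common arrangement had the start of a protein-coding gene at 1 anchor and its end at the other. It was seen in 127 short loops, or 2.90% (2.42 to 3.44), against 0.466% (0.332 to 0.637) of loops of 25 to 100 kb and 0.107% (0.0568 to 0.182) of those of 100 to 500 kb. For this, the start and end had to lie within 1 kb of opposite anchors, so that wide anchors also admitted genes shorter than the loop. The 122 genes concerned had a median length of 11.8 kb. These loops had a median of 9 PETs, and 49.6% of them had at least 10. Their median anchor measured 2135 bp, against 1363 bp for all short loops, and the part of anchor width was not tested. Lzts2, Wnt10a and Mpg lay at 3 of the strongest. At Wnt10a and Mpg the anchors overlapped each other. Mpg, at 6.20 kb, was shorter than either of its anchors, of 17.5 and 15.6 kb. These 2 loops therefore do not resolve a link between start and end.

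Short loops also lay inside genes more often. The whole loop fell within the body of 1 gene in 1208 cases, or 27.5% (26.2 to 28.9), against 11.5%, 5.01% and 1.23% in the longer classes. A loop of short span has more room inside a gene, and the effect of span itself on this share was not tested. Besides the loop inside Sfi1, the strongest were those of 127 PETs in Il11ra1, 112 in Dgkz and 107 and 95 in Nav2. In all, 666 protein-coding genes held such a loop, 438 of them only 1. Gm20388, a read-through gene model of 4435 kb with no counts in any library, held 47, Sfi1 held 24, 2900026A02Rik held 14, Cyfip2 held 12 and Camk2a held 11. A further 1515 short loops (34.5%) contained a whole gene, 1326 (30.2%) overlapped only parts of genes and 541 (12.3%) met no gene.

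Short loops were seldom apart from longer ones. Both anchors overlapped anchors of longer loops in 3049 cases (69.5%), 1 anchor did in 1146 (26.1%), and 192 loops (4.38%) shared none. Most of them, 4150 (94.6%), lay within a longer loop. Longer loops of any span counted for this, including 127 of 5000 kb or more. The share for other positions in the genome was not tested. Merged where they overlapped, the short loops formed 2253 blocks, of which 1352 held a single loop and 25 held at least 10. The largest blocks held 31 loops at Sfi1, 22 around Thra, Nr1d1 and Msl1 on chromosome 11, 19 around Rin1, Cnih2 and Klc2 on chromosome 19, and 19 around Plekhg5 and Espn on chromosome 4. Chromosome 11 had 4.08 short loops per Mb and chromosome 19 had 3.09, against 0.797 on chromosome 13. Relative to protein-coding genes, chromosome 15 had the most, 35.5 per 100. Chromosome X had 4 short loops among only 55 loops of any span.

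The motif was found in 39.0% (37.9 to 39.99) of short-loop anchors and in 5.26% of all 1-kb windows of the genome, which are narrower than most anchors. Longer loops had it in 40.5%, 40.3% and 34.0% of anchors. Both anchors of a short loop held it in 17.2% of cases, from 8.43% at 3 PETs to 49.2% at 20 PETs or more, while anchors also widened with the count. Among loops in which each anchor had matches on 1 strand only, motif orientation differed between short and long loops. Of 607 such short loops, 170 were convergent (28.0%, 24.5 to 31.8), 311 were tandem (51.2%, 47.2 to 55.3) and 126 were divergent (20.8%, 17.6 to 24.2). The left anchor of these 607 loops had plus-strand matches in 50.74% and the right anchor minus-strand matches in 56.51%. Strands without a preference would also make tandem pairs the most common, because tandem pairs arise with either strand. A difference of the short-loop shares from such strands was not tested. Convergent pairs made up 47.9% (45.0 to 50.8) at 25 to 100 kb, 63.4% (61.1 to 65.7) at 100 to 500 kb and 72.6% (67.3 to 77.5) at 500 kb or more.

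**Figure D3:**
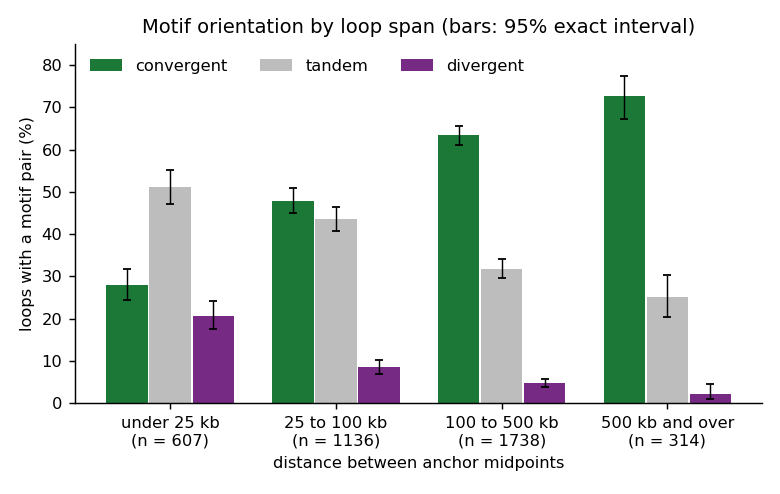
Share of loops in percent (vertical axis) with convergent, tandem or divergent motifs in each class of span (horizontal axis), among loops with matches on 1 strand at each anchor. Lines are exact binomial 95% intervals, and the convergent share stood at 28.0% under 25 kb and 72.6% at 500 kb or more.

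Within the short loops, the convergent share was 21.6% under 10 kb, 25.5% at 10 to 15 kb, 24.1% at 15 to 20 kb and 45.5% at 20 to 25 kb, the last close to the 44.5% of loops of 25 to 50 kb. Divergent pairs went from 31.2% under 10 kb to 10.9% at 20 to 25 kb. Convergent short loops had a median of 9 PETs, and tandem and divergent ones had 6. The convergent share was 20.8% (13.2 to 30.3) at 3 PETs and 46.5% (36.5 to 56.7) at 20 PETs or more. It was 56.2% (18 of 32 loops, 37.7 to 73.6) where both anchors were at promoters and 22.5% (84 of 374 loops, 18.3 to 27.03) where neither was. With matches outside repeats only, which are lower-case letters in the reference, it was 23.7% for short loops and 53.2%, 67.2% and 74.2% for the longer classes.

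The letters CCAGAAGAGGGC, seen several times in the sequences printed for Sfi1, were the most frequent match. They made up 827 of the 3289 matches in short-loop anchors, or 25.1% (23.7 to 26.7), and 823 of these lay in sequence marked as repeats. Their share was 24.9% at 25 to 100 kb, 20.9% at 100 to 500 kb, 12.2% at 500 kb or more and 35.8% over all matches in the genome. The next most frequent, CCACCAGGGGGC, made up 4.74% of matches in short-loop anchors, and 1 of its 156 copies lay in a repeat.

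Short loops overlapped 3999 annotated genes, of which 2818 were protein-coding, or 13.0% of all protein-coding genes. Expression is given as CPM, the count of a gene scaled to a common normalized library size, as the mean of the control libraries, and levels are compared between genes also per transcript length (TPM). In bulk tissue, fewer cells of a type and less RNA per cell cannot be told apart. Protein-coding genes at short loops had a median of 21.98 CPM, with 21.99, 22.03 and 21.42 CPM in the 3 control libraries. Those that overlapped longer loops only had 6.12 CPM and those at no loop 1.64 CPM. In TPM the medians were 25.1, 7.06 and 2.27. Protein-coding genes with their promoter at an anchor differed less between spans. Their median was 26.6 CPM (34.8 TPM) at short-loop anchors and 22.6 CPM (23.5 TPM) at anchors of longer loops only. A short loop overlapped 2.25% of protein-coding genes with no control counts, 11.4% of those up to 1 CPM, 14.9% at 1 to 10 CPM, 15.3% at 10 to 100 CPM and 24.2% above 100 CPM. Over the same classes, the share with a promoter at an anchor of a longer loop rose from 2.13% to 23.1%. Median gene length rose over them from 5.97 to 39.1 kb, and its part in these shares was not tested.

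**Figure D4:**
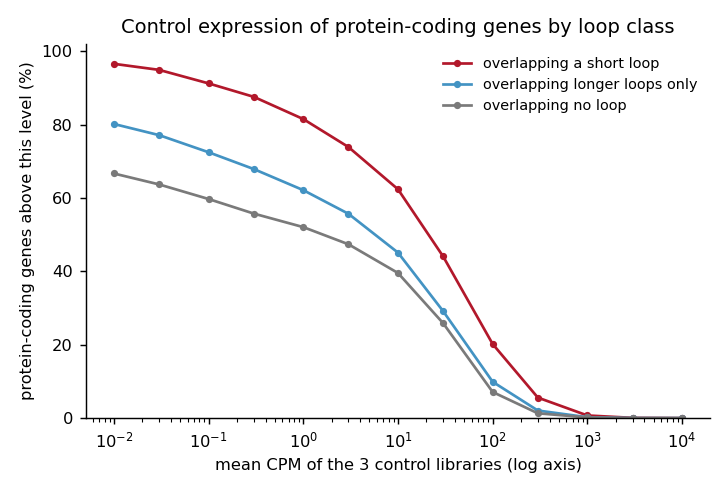
Share of protein-coding genes in percent (vertical axis) above a given mean control CPM (horizontal log axis), by the loops they overlap. Genes at a short loop, in red, lay above the other groups over most of the range, with medians of 21.98, 6.12 and 1.64 CPM.

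Among the most highly expressed of these genes were Camk2a with 4636 ± 111 CPM (SD, n = 3) and Kif5a, a kinesin motor, with 2969 ± 71.5. Mbp, a myelin gene, had 2363 ± 33.0, which came from tissue that includes oligodendrocytes, whereas the loops came from sorted neurons. Below them were Ddn, Ndrg4, Hsp90ab1 and Hpca, between 1625 and 2133 CPM. In TPM the first 5 were Camk2a, Calm3, Hsp90ab1, Ddn and Hpca, between 2597 and 2901. The only short loop at Calm3 had 3 PETs, while the strongest at Hpca had 66. The 145 protein-coding genes at 5 or more short loops had a median of 57.5 CPM.

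Of all protein-coding genes, 2818 of 21755 (12.95%) overlapped a short loop, and the counts in the lists below stand beside that share. Among lists of genes, immediate early genes had 6 of 18 members at short loops (Junb, Npas4, Egr1, Fosb, Bdnf and Egr3), and 5 of these had their promoter at an anchor. Excitatory neuron markers had 4 of 10 (Camk2a, Neurod2, Slc17a7 and Bcl11b), interneuron markers 1 of 9 (Cck), astrocyte markers 1 of 8, oligodendrocyte markers 1 of 8, microglia markers 4 of 8 and endothelial markers 0 of 6. Voltage-gated sodium and calcium channels had 12 of 40, potassium channels 19 of 92, glutamate receptors 4 of 26, GABA receptors 3 of 21 and the synaptic release machinery 5 of 20. Genes of CTCF and cohesin had 4 of 15, Polycomb genes 7 of 30, enzymes that set or remove H3K4 methylation 5 of 19, cytosolic ribosomal proteins 16 of 83, solute carriers 68 of 375 and collagens 7 of 44. Hox genes had 12 of 39 and replication-dependent histones 10 of 65. C2H2 zinc finger genes had 31 of 415, imprinted genes 3 of 35, olfactory receptors 2 of 1093 and clustered protocadherins 0 of 57, although all 57 overlapped longer loops. Gene length differed between lists. Its median was 5.69 kb for immediate early genes and 104.7 kb for voltage-gated sodium and calcium channels, against 17.4 kb for all protein-coding genes. The part of length in these counts was not tested.

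The comparison of Kdm1a-ifKO with control mice asks how genes at short loops behaved when the H3K4 demethylase Kdm1a was lost from excitatory neurons. Kdm1a itself, which lies at no short loop, had 79.5, 81.0 and 79.5 CPM in controls and 39.2, 36.8 and 38.4 in Kdm1a-ifKOs. Library totals ranged from 18985542 to 19469947 counts. Of the genes at short loops, 2618 passed the filter on low counts. By edgeR's quasi-likelihood test at an adjusted p of 0.05, 249 were upregulated, or 9.51%, against 6.04% of all genes tested, and 33 were downregulated, or 1.26%, against 2.82%. With a change of at least 2-fold, 47 were upregulated, or 1.80%, against 1.36%, and 0 were downregulated, against 0.0655%. At an unadjusted p of 0.05, 144 had lower values, and DESeq2 also called 0 at least 2-fold lower. Without Kdm1a-ifKO replicate 3, 156 were upregulated and 8 downregulated at any fold, and without Kdm1a-ifKO replicate 1 these counts were 179 and 8. The median log2FC was 0.06 for these genes and -0.0029 for all. Among tested genes with their promoter at a short-loop anchor, 8.77% were upregulated and 0.656% downregulated. Where the promoter lay at anchors of longer loops only, these shares were 7.93% and 2.73%. Upregulation of at least 2-fold was called in 1.48% at short-loop anchors and 1.93% at anchors of longer loops only.

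The split between directions changed with a correction for base composition. Genes at short loops had a median exonic GC content of 54.2%, against 49.3% for all genes. With the correction, added after seeing the data, the test called 187 upregulated (7.14%) and 100 downregulated (3.82%), against 5.84% and 3.24% of all genes. The median log2FC became 0.0038 for genes at short loops and -0.0039 for all. Of 1220 tested genes with their promoter at a short-loop anchor, 72 were then upregulated and 51 downregulated. Where the promoter lay at anchors of longer loops only, these counts were 132 and 88 of 1866. Above 100 CPM, the downregulated share went from 2.99% to 10.9% at short loops and from 9.12% to 10.7% elsewhere.

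The largest changes were in genes with little or no expression in controls. C1ql4, which encodes a secreted synaptic organizer, had 0.0522, 0 and 0.0537 CPM in controls and 5.65, 4.97 and 6.31 CPM in Kdm1a-ifKOs. This was 2 counts against 331, a ratio of 160.3 (44.0 to 1329). Nags, an enzyme that activates the urea cycle, had 2 counts against 284, a ratio of 137.5 (37.7 to 1141). Tmem30b, a flippase subunit gene, had 1 count against 174, a ratio of 168.5 (29.9 to 6694). These 3 genes, like those named next, were chosen for a large change and no overlap between groups. The intervals on the ratios pool the reads of the 3 libraries of each group and cover counting error only.

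Prph, an intermediate filament gene of peripheral neurons, rose from 1.57, 1.26 and 1.02 CPM to 36.3, 40.8 and 36.4 CPM (log2FC 4.88 ± 0.13 SE, adjusted p 5.99e-11, edgeR). Myod1, a muscle transcription factor gene, rose by 4.50 on the log2 scale. Further genes at the top of this list were Espnl (3.10), Capn11 (2.46), Kremen2 (2.38), Gm12992 (2.37), B3gnt3 (2.20), Mafa (2.16), Mybpc2 (2.07) and Wnt1 (2.03), given as log2FC. Prph, C1ql4, Mafa and Wnt1 all lie on chromosome 15, and each had its start within 1 kb of a short-loop anchor. The strongest short loop at each of the genes from C1ql4 to Wnt1 held 5 to 15 PETs, at or above the median of all short loops.

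**Figure D5:**
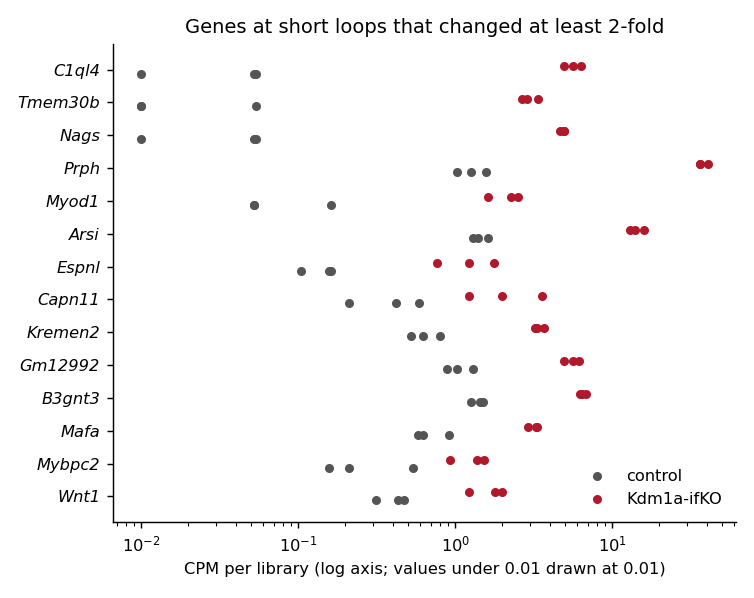
CPM in each library (horizontal log axis, values under 0.01 drawn at 0.01) for 14 genes at short loops (vertical axis) that changed at least 2-fold, with controls in grey and Kdm1a-ifKOs in red. The genes were chosen for a large change and no overlap between groups, so the gaps describe the choice.

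Arsi, by contrast, lies in the loop of 1242 PETs. It had 1.31, 1.63 and 1.40 CPM in controls and 13.9, 12.9 and 16.0 CPM in Kdm1a-ifKOs (log2FC 3.30 ± 0.15 SE, adjusted p 1.76e-08, edgeR). On the other side of Camk2a, Slc6a7, a proline transporter gene at no short loop that was chosen after its value was seen, went from 105.1 ± 2.77 to 160.0 ± 10.4 CPM (SD, n = 3, log2FC 0.61, adjusted p 1.59e-05, edgeR). Camk2a itself had 4636 and 4812 CPM (log2FC 0.05, adjusted p 0.584, edgeR). The Camk2a-creERT2 transgene was present in Kdm1a-ifKOs and absent from controls, so that its presence and the loss of Kdm1a cannot be told apart at these neighbours.

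Other genes at strong or many short loops were also upregulated. Espn, an actin-bundling gene at 13 short loops, had 8.46, 8.13 and 7.57 CPM in controls and 24.4, 26.8 and 25.2 in Kdm1a-ifKOs, with a log2FC of 1.66. Tjp3 had a log2FC of 1.46 and Rhbdf1 1.22. Sfi1, at 31 short loops, had 20.2 ± 1.09 CPM in controls and 20.8 ± 0.397 in Kdm1a-ifKOs (SD, n = 3) and was not called. In 112 tested genes, the start and end lay at opposite anchors of a short loop. Of these, 18 were upregulated and 0 downregulated, against 6.04% and 2.82% of all genes tested. This set was added after its values were seen. Of the marker lists, 0 of the 4 excitatory neuron genes at short loops were called, while C1qb and Cx3cr1 of the 4 microglia genes and S100b of the astrocyte markers were upregulated, by 0.35, 0.27 and 0.26 on the log2 scale. These 3 calls were lost when some of the libraries were left out. The part of glial RNA in other changes was not tested.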

How the data were processed

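The deposited PET counts were made by the authors with ChIA-PIPE on mm10 (GRCm38), and the lowest count in the file is 3 PETs. The read depth before that step is not known from them. The deposited RNA-seq values are raw counts per Ensembl gene, made by the authors with cutadapt 1.18, HISAT2 2.1.0 and HTSeq 0.11.1 (versions per the submitters' processing notes). The use of strand in counting is not given in the sources used here, so reads of overlapping and antisense genes may not be separated. The other 30 samples of the series were not used here.

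Loops were compared with GENCODE M21 genes on 20 chromosomes, and 446 of 48795 counted genes were not in that annotation. A gene overlapped a loop if its body shared at least 1 bp with the stretch between the outer anchor edges. Genotypes were compared by the quasi-likelihood test of edgeR 4.0.16 under R 4.3.3, after TMM scaling and the filterByExpr rule, on the whole table and with Benjamini-Hochberg adjustment over all tested genes. DESeq2 1.42.0 was an alternative. Scripts were tested on simulated data. Each RNA-seq library came from a separate mouse.

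The members, gene lists and rules were chosen with earlier results of these data known. Named loops were the 10 strongest, the 5 shortest, the 3 on either side of the limit, and the 5 strongest inside a gene and between promoters. Named genes were those at these loops, at the most short loops or with the highest CPM or TPM, the 15 largest calls with at least 1 CPM in a genotype and no overlap between groups, and members of the lists. Loops with the start and end of a gene at opposite anchors were added after their values were seen. Some items that these rules select are not reported here.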

Additional observations from a re-analysis of the deposited data

How the results depend on the processing

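At least 5 or 10 PETs left 2311 or 912 short loops, with a median of 8 or 16 PETs, 45.05% or 51.86% with a promoter anchor and, at 10 PETs, 37.84% convergent. The promoter share was 54.46% within 2.5 kb of a gene start, 56.14% with the start of any transcript and 32.32% for protein-coding genes. The share inside 1 gene was 31.09% by anchor midpoints and 25.99% for protein-coding genes. Genes lying wholly within a short loop numbered 1567. Median control expression over all genes at short loops was 7.23 CPM, and 10.5 TPM, 14.5 CPM for genes at anchors, 0.406 CPM for genes wholly within a loop, 21.98 CPM for protein-coding genes and 26.2 CPM after the filter on low counts. It ranged from 7.09 to 7.29 CPM without each control replicate. Alternatives chosen after seeing the data put the convergent share at 23.7% (matches outside repeats) and 21.5% (anchors of at most 2 kb). Without the filter on low counts 436 genes were called, 82 of them lower and 1 at least 2-fold lower. For genes wholly within a loop 69 were called, 68 higher (17 at least 2-fold) and 1 lower. GC correction, also added after seeing the data, gave 100 lower. Without each replicate in turn the calls ranged from 164 to 266, higher ones from 156 to 240, lower ones from 8 to 41 and those at least 2-fold lower from 0 to 5. The calls numbered 187, with 8 lower, without Kdm1a-ifKO replicate 1, and 164, with 156 higher and 8 lower, without Kdm1a-ifKO replicate 3. Without Kdm1a-ifKO replicate 2, 5 were at least 2-fold lower. The cause of these shifts was not tested.

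Same-numbered samples did not deviate together (correlations of -0.032, -0.089 and -0.144), so the values gave no sign that the numbers pair the samples. A shared litter was not tested. With the replicate block 208 genes were called, 193 higher and 15 lower. Of 34 named genes called, 24 kept their call under all 11 settings. The others were C1qb, Cacnb3, Cx3cr1, Ezh1, Il11ra1, Inpp5f, Kcnn1, Kif5a, Marveld1 and S100b. With 1 ChIA-PET library, loop values have no replicate check.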
